A study of Mus musculus with 4 samples.

Results

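The genes described here are 10 members of the MYC transcription factor network and of the cell growth programme tied to it: Myc, Mycn, Mycl, Max, Mxd1, Mxi1, Ncl, Npm1, Odc1 and Cad. They were taken by gene symbol from a table of 38087 genes, where 9 matched as written and Mycl was listed under its older symbol Mycl1 and matched by its Ensembl identifier. RNA was measured in 2 WT libraries (wild-type mice, samples given as cervical lymph node) and in 2 libraries labelled Becn1-M-KO, here KO, from mice whose myeloid cells lack Becn1. All 4 libraries came from the C57BL/6 strain at postnatal week 20. The series calls the KO samples B cell lymphomas. Reads of sex-linked genes differed between the groups too, as given below, so genotype, tumour and sex cannot be told apart. The promoter that drove the deletion is not given in the sources used here, nor is it stated that replicates of a group were separate animals. The p-values therefore reflect the scatter among these libraries alone. Within the KO pair that scatter may be technical, while the WT pair also differed widely in cell type markers, as given below.

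MYC proteins are basic helix-loop-helix leucine zipper transcription factors that bind DNA as a pair with MAX, preferably at the E-box CACGTG. MXD1 and MXI1 also pair with MAX at such sites but recruit repressors, so they compete with MYC. Known products of the growth programme include nucleolin (Ncl) and nucleophosmin (Npm1), abundant nucleolar proteins of ribosome assembly, ornithine decarboxylase (Odc1), the first enzyme of polyamine synthesis, and CAD, the enzyme of the first steps of pyrimidine synthesis. In lymph nodes MYC is known for its brief induction in activated and germinal centre B cells, and in many B cell lymphomas for its sustained expression.

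The libraries held 15604247 to 20067004 reads, and levels are given in CPM, the usual depth-scaled read count. Marker sums are CPM of the library total, and all other CPM are TMM scaled. Becn1, the targeted gene, stood at 54.8 and 63.5 CPM in WT replicates 1 and 2 and at 49.5 and 53.3 CPM in KO replicates 1 and 2, in whole tissue, which does not check a deletion limited to myeloid cells. WT replicate 1 stood apart. The 6 B cell markers summed to 3.22 CPM there, but to 1318 in the other WT library and to 2317 and 2231 in the KO pair, and the 6 T cell markers to 1.49, 410, 350 and 334 CPM in the same order. All 6 genes of each list had at least 1 read in every library, but the lymph node label goes against these levels in WT replicate 1. For the 7 salivary and other epithelial markers the sums were 321400 and 6619 CPM (WT pair), then 98.5 and 3390 CPM (KO pair). Spt1 alone made up most of each sum, at 320200, 5448, 87.28 and 3372 CPM in the same order. The remaining epithelial markers were each similar between the WT libraries and far lower in both KO libraries. Krt18, for example, had 340.3 and 291.5 CPM (WT pair) against 0.6409 and 1.744 CPM (KO pair). Krt8 and Aqp5 were at 0 reads in KO replicate 1. The 6 macrophage markers summed to 134 and 1092 CPM (WT pair) against 2116 and 2045 CPM (KO pair), but they did not all move together. Lyz2 was highest in WT replicate 2, at 665.5 CPM. It stood at 30.67 CPM in WT replicate 1 and at 166.5 and 188.3 CPM in KO replicates 1 and 2. The other macrophage markers were each higher in both KO libraries than in both WT libraries. The 5 fibroblast and stromal markers summed to 62.5 and 116 against 515 and 408 CPM. The 6 proliferation markers summed to 28.2 and 171 CPM (WT pair) against 446 and 488 CPM (KO pair). Sex-linked genes also split the groups, with 2088 and 5314 Xist reads in WT and 3 and 34 in KO, and 17 and 53 reads of the Y-linked Ddx3y in WT and 928 and 1440 in KO. The part of tissue make-up, proliferation and sex in the values below was not tested. The KO libraries are therefore compared with both WT libraries and with each of them alone.

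Promoter sequence shows where the E-box occurs around the starts of these genes. RefSeq (build GRCm38.p6) gave 10 starts for 8 members, 3 of them for Mxi1. No start was available for Myc or Npm1, so these 2 were not searched. The window from 250 bases before to 50 bases after each start was searched on both strands for CACGTG. This motif is its own reverse complement. The window was also searched for 2 variants of it, CACGCG and CACGAG. The E-box CACGTG occurred at 1 of the 10 starts, that of Max, against 7.15% of 32851 promoters of the same length, and at least 1 of the 3 motifs occurred at 5 of the 10, against 20.3%. CACGCG was found in 9.27% and CACGAG in 6.47% of all promoters. A few sequences are shown, to 30 bases past the start, for MYC's partner, its antagonists that differed in opposite directions, and a metabolic gene known as a MYC target, with motif matches in capitals; no match overlapped another.
Max, chr12:76962219-76962498, minus strand: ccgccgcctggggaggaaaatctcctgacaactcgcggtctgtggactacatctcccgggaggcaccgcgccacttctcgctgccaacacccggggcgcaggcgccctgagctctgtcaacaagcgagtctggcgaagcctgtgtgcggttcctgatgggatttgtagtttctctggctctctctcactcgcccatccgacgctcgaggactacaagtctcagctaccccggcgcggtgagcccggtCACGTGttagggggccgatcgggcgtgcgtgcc
Mxd1, chr6:86669130-86669409, minus strand: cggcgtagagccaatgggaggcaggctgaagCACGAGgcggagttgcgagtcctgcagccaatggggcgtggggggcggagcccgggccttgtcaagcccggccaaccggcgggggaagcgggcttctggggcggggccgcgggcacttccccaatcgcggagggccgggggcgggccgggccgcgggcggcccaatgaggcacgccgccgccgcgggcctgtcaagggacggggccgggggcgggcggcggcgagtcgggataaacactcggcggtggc
Mxi1, first of 3 starts, chr19:53310256-53310535, plus strand: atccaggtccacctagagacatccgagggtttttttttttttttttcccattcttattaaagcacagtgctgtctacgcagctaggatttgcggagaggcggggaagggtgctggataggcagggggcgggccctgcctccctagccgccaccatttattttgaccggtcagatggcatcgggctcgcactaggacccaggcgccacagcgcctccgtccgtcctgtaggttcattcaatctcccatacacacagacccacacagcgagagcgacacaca
Odc1, chr12:17544623-17544902, plus strand: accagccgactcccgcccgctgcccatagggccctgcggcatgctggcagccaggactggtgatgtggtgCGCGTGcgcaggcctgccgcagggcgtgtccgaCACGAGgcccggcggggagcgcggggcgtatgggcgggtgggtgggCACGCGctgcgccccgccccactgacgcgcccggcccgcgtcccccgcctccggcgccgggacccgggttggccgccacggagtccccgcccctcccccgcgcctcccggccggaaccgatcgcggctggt
In Max the E-box begins 3 bases before the annotated start and spans it. Mxd1 holds 1 CACGAG far upstream, Odc1 holds 2 CACGCG (1 of them on the other strand, read as CGCGTG) and 1 CACGAG, and the windows at the 3 Mxi1 starts hold none of the 3 motifs. These matches describe the letters and were not linked to binding. Sites outside the windows were not searched for, so a gene without a match may still hold an E-box elsewhere.

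**Figure D1:**
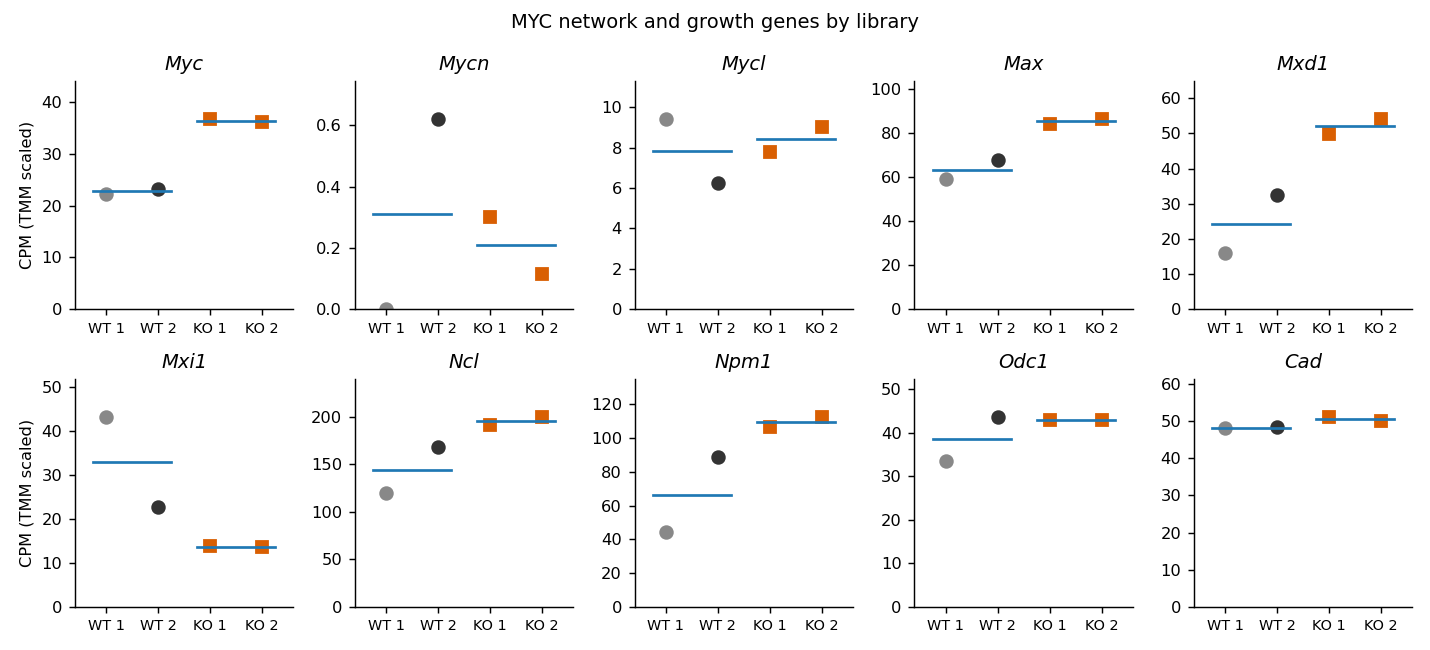
Level of each of the 10 genes in each library, in CPM with trimmed-mean (TMM) scaling; circles are WT libraries, squares KO libraries and blue lines group means, with a separate axis from 0 in each panel. Myc, Max, Mxd1, Ncl and Npm1 are higher in both KO libraries than in both WT libraries, and Mxi1 is lower. Cad lies nearly level, at 48.1 and 48.5 CPM in the WT pair, and 51.2 and 50.1 CPM in the KO pair. Odc1 is lower in WT replicate 1, at 33.5 CPM, than in WT replicate 2 (43.7 CPM) and KO (43.0 and 42.9 CPM).

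Of the 10 genes, 9 had enough reads to be tested against both WT libraries, and none was called at an adjusted p of 0.05 with edgeR's quasi-likelihood test, where 1.04% of genes tested were called higher in KO and 2.18% lower. At an unadjusted edgeR p under 0.05 there were 2, Myc (higher) and Mxi1 (lower). Of all 20695 genes tested, 2180 were higher and 3391 lower at that cut-off. DESeq2 called 0 of the 9 (18.1% of genes in either direction), as did limma-voom (3.16%). With the scaled levels of KO and WT not overlapping, 6 of the 9 were higher in KO, against 34.3% of genes tested, and 1 was lower, against 33.3%. The share higher was thus above that of all genes and the share lower below it, a difference that was not tested. The median log2 fold change over the 9 was 0.43, against 0.010 over all genes.

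Against WT replicate 1 alone, 6 of 9 tested members rose (32.3% of genes) and 1 fell (32.5%). Against WT replicate 2 alone, 4 of 10 rose (20.9% of genes) and 1 fell (22.8%). In both comparisons the share of members that rose lay above that of all genes and the share that fell below it. With 9 or 10 members chosen with earlier results known, nothing particular to them is read from these counts. In both of these fits the single WT library is assumed to vary like the KO pair, and the KO libraries are shared. Scaling by library totals alone shifted the median of all genes to 1.39 against WT replicate 1 and 0.129 against WT replicate 2. The split of calls over all genes then moved from 6887 higher and 6922 lower to 15091 (70.8%) and 2608 (12.2%) against WT replicate 1, and from 4573 and 4988 to 5883 (26.9%) and 4221 (19.3%) against WT replicate 2. Of the members, 8 were then higher and 1 lower against WT replicate 1, and 6 higher and 1 lower against WT replicate 2. Those values have to be read against the shift of all genes. Cad, for example, stood at 1.40 against WT replicate 1 on that scale.

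Myc was higher in KO than in either WT library, and with TMM scaling by nearly the same amount. The gene lies at 61985391 to 61990374 on the plus strand of chromosome 15 (mm10, as are the positions below). Its 185 and 488 reads in WT and 731 and 938 reads in KO gave 22.3 and 23.3 CPM in the WT pair, and 36.8 and 36.1 CPM in the KO pair. On this scale the WT libraries differed by 1.04-fold for this gene and the KO libraries by 1.02-fold. By CPM of the library total the WT libraries stood further apart, at 11.5 and 27.3, with the KO libraries at 46.9 and 46.7. Both KO values lay above both WT values, with a ratio of group means of 1.6. The log2 fold change was 0.68 (SE 0.18, 95% interval 0.17 to 1.19), with an edgeR adjusted p = 0.125 over all genes tested. Against WT replicate 1 alone Myc rose by 0.69 (SE 0.14, edgeR adjusted p = 5.55e-04) and against WT replicate 2 alone by 0.65 (SE 0.12, edgeR adjusted p = 7.54e-04). With library totals alone the same log2 differences were 2.03 and 0.78, beside the shifts of 1.39 and 0.129 over all genes. In the authors' deposited table of comparisons Myc had a log2 fold change of 0.69 and an unadjusted p of 0.000844. That table holds only genes with an unadjusted p under 0.05. It has 2482 genes as higher in KO (6.52% of all 38087 genes listed) and 3029 as lower (7.95%). Of the 38087, only 30898 had a read and 20695 were tested here, so these shares include many genes without reads. Among the 10 members 3 are in that comparison table, Myc, Max and Cad, each as higher. In whole tissue, a higher share of cells that express a gene and more RNA per cell cannot be told apart.

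Mycn and Mycl, which encode the other members of the MYC family, were low. Mycn (chromosome 12, 12936096 to 12941914, minus strand), known from neural tissue and early development, had 0 and 13 reads in the WT pair, and 6 and 3 in the KO pair, and a count of 0 in WT replicate 1 allows up to 3 reads, or 0.186 CPM of the library total. It was too low to be tested against both WT libraries. Against WT replicate 2 alone its value was −1.61 (SE 0.79, edgeR adjusted p = 0.121), with a 95% interval of −3.34 to 0.11. Mycl (chromosome 4, 122995652 to 123002485, plus strand) had 78 and 131 reads in the WT pair, and 155 and 234 in the KO pair. Its levels of 9.42 and 6.25 CPM in the WT pair, and 7.80 and 9.02 CPM in the KO pair overlapped, with the highest value in WT replicate 1. The log2 difference was 0.11 (95% interval −0.79 to 1.01, edgeR adjusted p = 0.845), and it was −0.17 against WT replicate 1 and 0.44 against WT replicate 2. Per kilobase of annotated exon (GENCODE M21), Myc stood at 8.22 to 13.5 CPM per kilobase over the 4 libraries, Mycl at 1.55 to 2.33 and Mycn at 0 to 0.188. The order Myc, Mycl, Mycn was the same in all 4 libraries, and also per kilobase of genomic span, on which Myc stood at 4.48 to 7.38, Mycl at 0.914 to 1.38 and Mycn at 0 to 0.107.

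Max, the common partner, was modestly higher in KO. It lies on chromosome 12 from 76937269 to 76962248 on the minus strand. It had 489 and 1424 reads in the WT pair, and 1677 and 2245 in the KO pair, or 59.1 and 67.9 CPM against 84.4 and 86.5 CPM. The groups did not overlap, with the KO libraries within 1.03-fold of each other and the WT libraries within 1.15-fold. The log2 fold change was 0.43 (SE 0.21, edgeR adjusted p = 0.287, 95% interval −0.17 to 1.02). Max rose by 0.52 against WT replicate 1 (edgeR adjusted p = 0.00114) and by 0.34 against WT replicate 2 (edgeR adjusted p = 0.0175). The authors' deposited table gives 0.43 with an unadjusted p of 0.0326.

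The MAX-binding antagonists moved in opposite directions. Mxd1 (chromosome 6, 86647044 to 86669159, minus strand), which encodes MAD1 and is known from maturing and differentiating blood cells, had 132 and 679 reads in the WT pair, and 992 and 1404 in the KO pair, or 15.9 and 32.4 CPM against 49.9 and 54.1 CPM. Mxi1 (chromosome 19, 53310506 to 53375810, plus strand), which encodes a related repressor, had 358 and 477 reads in the WT pair, and 276 and 351 in the KO pair, or 43.2 and 22.7 CPM against 13.9 and 13.5 CPM. For both genes WT replicate 1 was the library farthest from KO, WT replicate 2 lay between, and the KO pair did not overlap WT. The log2 value of Mxd1 was 1.10 (SE 0.40, edgeR adjusted p = 0.190, 95% interval −0.018 to 2.22) and that of Mxi1 −1.26 (SE 0.38, edgeR adjusted p = 0.142, 95% interval −2.31 to −0.22). Mxd1 rose by 1.69 (SE 0.14) against WT replicate 1 and by 0.69 (SE 0.11) against WT replicate 2, with edgeR adjusted p = 2.25e-07 and 3.04e-04. Mxi1 fell by 1.67 (SE 0.13) and by 0.73 (SE 0.13) in the same order, with edgeR adjusted p = 1.09e-07 and 7.12e-04. The size of both changes thus depends on the WT library by more than 1.5 times, and mean KO Mxd1 was 3.26-fold and 1.61-fold the respective WT level. With library totals alone Mxi1 was lower by less, at −0.33 and −0.60 in the same order. Gm10197, listed on the strand opposite Mxi1 within its span, had reads equal to 12.2% to 17.4% of those of Mxi1. With these taken away Mxi1 was still lower, by −1.69 and −0.82 against the respective WT libraries. The subtraction assumes that each such read was counted for both genes, which is not stated in the sources used here.

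**Figure D2:**
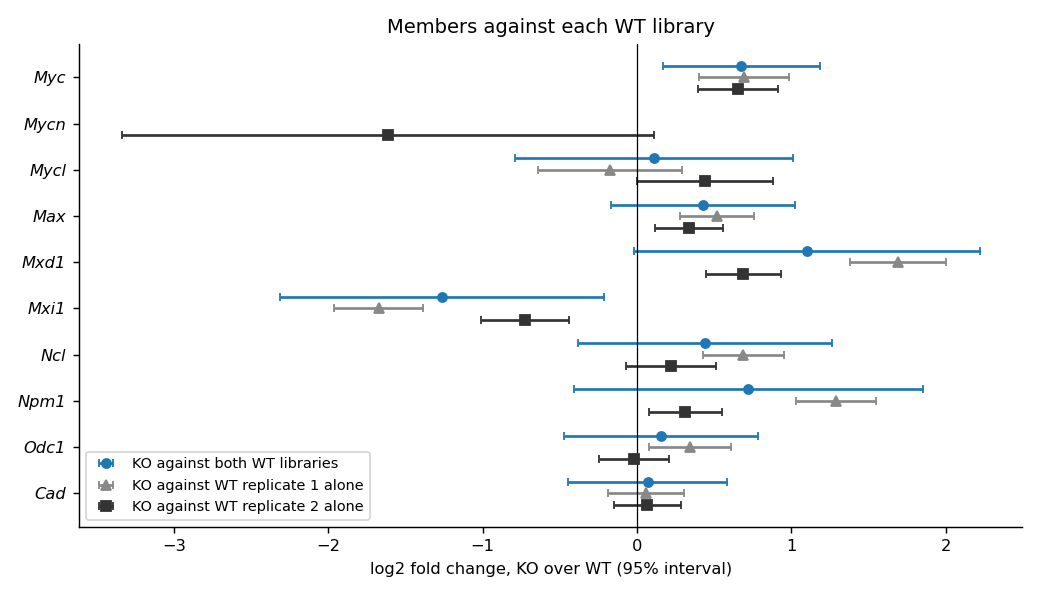
Log2 fold change of KO over WT for each gene, against both WT libraries (blue circles), WT replicate 1 alone (grey triangles) and WT replicate 2 alone (black squares); bars are 95% intervals from the edgeR fits. With TMM scaling Myc lies at 0.65 to 0.69 in all 3 comparisons, whereas Mxd1 ranges from 0.69 to 1.69 and Mxi1 from −1.67 to −0.73; Mycn was tested against WT replicate 2 only.

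Ratios of reads between 2 genes within 1 library do not depend on how libraries are scaled. Where 1 gene was higher in KO without overlap and the other lower, their ratio had to separate the groups. This holds for Mxi1 to Myc and for Mxi1 to Mxd1. Mxi1 reads were 1.94 times those of Myc in WT replicate 1 and 0.978 times in WT replicate 2 (95% interval 0.860 to 1.11, exact binomial, counting error only). In KO the ratio was 0.378 (0.328 to 0.434) and 0.374 (0.330 to 0.423). Both KO ratios lay below both WT ratios, at 0.386 and 0.383 of the WT replicate 2 value. Mxd1 reads were 0.714 times those of Myc in WT replicate 1, 1.39 times in WT replicate 2, and 1.36 and 1.497 times in KO. The ratio in WT replicate 2 thus lay between the 2 KO ratios. The Mxi1 to Mxd1 ratio did not overlap either, with 2.71 and 0.703 in WT and 0.278 and 0.250 in KO. Myc to Max was 0.378 and 0.343 in WT and 0.436 and 0.418 in KO, also without overlap, though the counting interval of WT replicate 1 (0.318 to 0.449) reaches into the KO values.

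**Figure D3:**
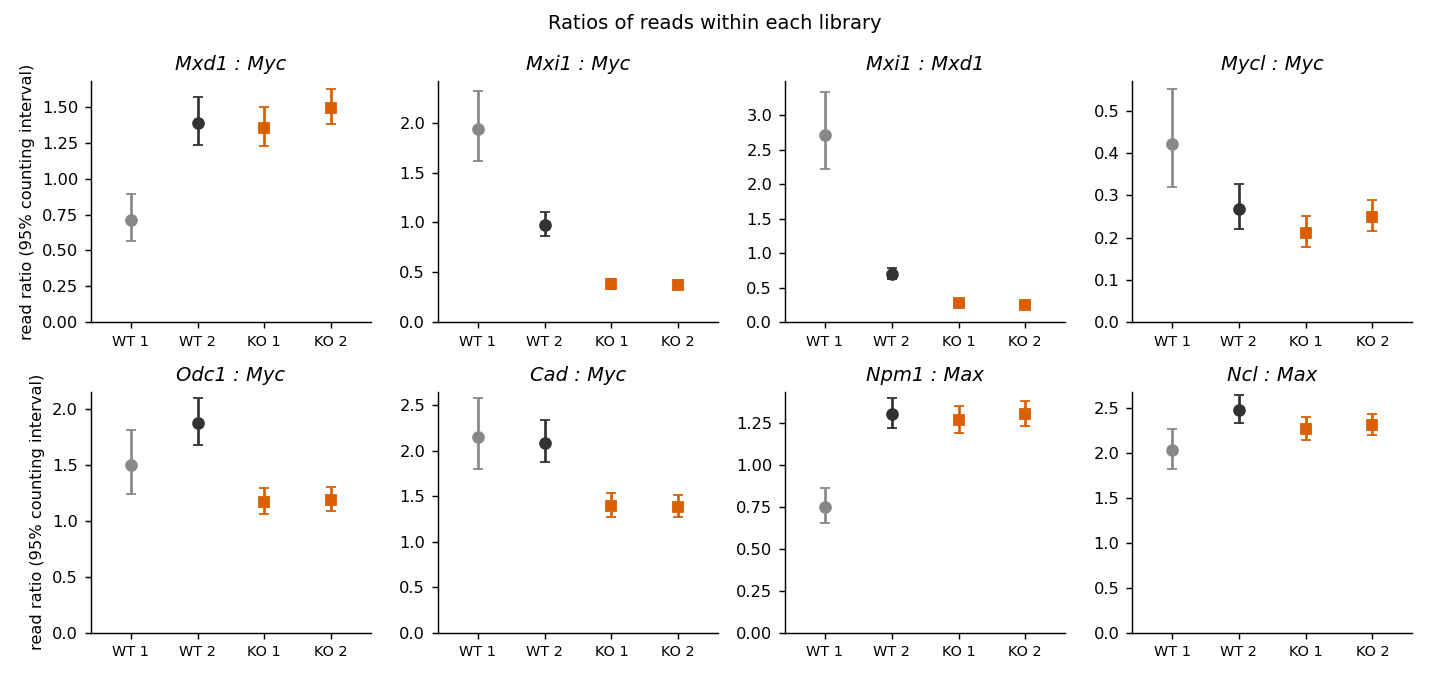
Reads of 1 gene divided by reads of another in the same library, with 95% exact binomial counting intervals; circles are WT and squares KO, and each panel has its own axis from 0. The Mxi1 to Myc ratio is 1.94 and 0.978 in WT and 0.378 and 0.374 in KO, Cad to Myc is 2.15 and 2.08 in WT and 1.39 in both KO libraries, and Npm1 to Max differs mainly between WT replicate 1 (0.753) and the other 3 libraries (1.27 to 1.31).

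The nucleolar genes were higher in KO mainly in comparison with WT replicate 1. Ncl (chromosome 1, 86344719 to 86359455, minus strand) had 994 and 3531 reads in the WT pair, and 3797 and 5195 in the KO pair, or 120 and 168 CPM against 191 and 200.2 CPM. Npm1 (chromosome 11, 33152287 to 33163206, minus strand) had 368 and 1860 reads in the WT pair, and 2125 and 2926 in the KO pair, or 44.4 and 88.7 CPM against 107 and 113 CPM. In each case WT replicate 1 was the lowest library and WT replicate 2 lay just under the KO pair. The log2 value of Ncl was 0.44 (95% interval −0.38 to 1.26, edgeR adjusted p = 0.394) and that of Npm1 0.72 (95% interval −0.41 to 1.85, edgeR adjusted p = 0.328). Npm1 rose by 1.29 against WT replicate 1 (edgeR adjusted p = 5.38e-07) and by 0.31 against WT replicate 2 (edgeR adjusted p = 0.0356). Ncl rose by 0.69 against WT replicate 1 (edgeR adjusted p = 2.51e-04) and had a value of 0.22 against WT replicate 2 (95% interval −0.069 to 0.51, edgeR adjusted p = 0.205). Within libraries, Npm1 reads were 0.753 times those of Max in WT replicate 1 and 1.31, 1.27 and 1.30 times in WT replicate 2 and the 2 KO libraries. Small nucleolar RNA genes lie in the span of Ncl, and their reads equalled 13.6% of Ncl reads in WT replicate 1, 124 of the 135 from Snord82, but 1.87%, 1% and 0.423% in the other libraries. With those reads taken away the Ncl difference was 0.90 against WT replicate 1 and 0.23 against WT replicate 2. This assumes that they were also counted for Ncl, which is not known.

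Odc1 and Cad, the metabolic genes, differed little from WT replicate 2 with TMM scaling, and Odc1 was higher than in WT replicate 1. Cad (chromosome 5, 31054780 to 31078479, plus strand) had 398 and 1017 reads in the WT pair, and 1018 and 1300 in the KO pair, or 48.1 and 48.5 CPM against 51.2 and 50.1 CPM. The KO values were above the WT values, but only just, with a log2 difference of 0.069 (95% interval −0.45 to 0.58, edgeR adjusted p = 0.829). It was 0.060 against WT replicate 1 (95% interval −0.19 to 0.31) and 0.067 against WT replicate 2 (95% interval −0.15 to 0.29). The authors' deposited table lists Cad as higher in KO, with 0.089 and an unadjusted p of 0.0270. Odc1 (chromosome 12, 17544873 to 17551502, plus strand) had 277 and 916 reads in the WT pair, and 854 and 1114 in the KO pair, or 33.5 and 43.7 CPM against 43.0 and 42.9 CPM, so that WT replicate 2 was the highest library and WT replicate 1 the lowest. Its log2 difference was 0.15 (95% interval −0.48 to 0.78, edgeR adjusted p = 0.688), a rise of 0.35 against WT replicate 1 (edgeR adjusted p = 0.0253) and −0.020 against WT replicate 2 (95% interval −0.25 to 0.21, edgeR adjusted p = 0.898). A small nucleolar RNA gene inside Odc1, SNORA42, had 30 reads in WT replicate 1, or 10.8% of Odc1 reads, and under 1% elsewhere. With those reads taken away, if they were also counted for Odc1, its difference was 0.52 against WT replicate 1 and −0.024 against WT replicate 2. Relative to Myc both genes were lower in KO: Cad reads were 2.15 and 2.08 times those of Myc in WT and 1.39 times in each KO library, and Odc1 reads were 1.497 and 1.88 times in WT and 1.17 and 1.19 times in KO. The counting intervals of the KO ratios of Cad to Myc (1.27 to 1.53 and 1.27 to 1.51) lay below those of WT (1.80 to 2.58 and 1.87 to 2.33).

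Other genes of the pathway were taken from a list of 69, of which 68 were tested. Against both WT libraries edgeR called none of them (1.04% of all genes tested were called higher and 2.18% lower). At an unadjusted edgeR p under 0.05 there were 12, where 2180 of all 20695 genes tested were higher and 3391 lower. DESeq2 called 5 (18.1% of all genes tested) and limma-voom 0 (3.16%). The median log2 fold change was 0.19, with 43 positive and 25 negative values. Against WT replicate 1 alone 33 rose and 15 fell, where 32.3% of all genes rose and 32.5% fell. Against WT replicate 2 alone 17 rose and 8 fell, where 20.9% of all genes rose and 22.8% fell (medians 0.26 and 0.12, beside 0.056 and 0.004 over all genes).

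Among the 16 MYC network partners, 8 rose and 2 fell against WT replicate 2 (20.9% and 22.8% of all genes), and 10 rose and 3 fell against WT replicate 1 (32.3% and 32.5%). In the next sentences the last pair of values for each gene is its log2 difference from WT replicate 1 and from WT replicate 2. Mlxipl, which encodes the glucose-responsive factor ChREBP, stood at 7.25 and 4.15 CPM in the WT pair, and 0.805 and 0.617 CPM in the KO pair, with a log2 value of −2.98 (SE 0.47, edgeR adjusted p = 0.0611; DESeq2 adjusted p = 7.3e-05), and −3.37 and −2.55. Mxd4, another MAX-binding repressor of the MXD family, stood at 292 and 205 CPM in the WT pair, and 94.0 and 92.5 CPM in the KO pair (log2 value −1.41, SE 0.31, edgeR adjusted p = 0.0886; DESeq2 adjusted p = 0.00727), and −1.66 and −1.13. Mnt, a MAX-binding repressor outside that family, went the other way, with 17.8 and 22.1 CPM in the WT pair, and 38.4 and 39.1 CPM in the KO pair (log2 value 0.96, SE 0.22, edgeR adjusted p = 0.0944), and 1.11 and 0.81. Mxd3, the remaining MXD gene on the list, overlapped between groups, at 19.7 and 13.0 CPM in the WT pair, and 14.5 and 14.9 CPM in the KO pair. The repressors named here did not share a direction. Mxd1 and Mnt were higher in both KO libraries than in both WT libraries, and Mxi1 and Mxd4 were lower. Of all genes tested, 34.3% were higher and 33.3% lower by that rule, and Mnt and Mxd4 were named for their small p.

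Genes of ribosomal RNA transcription and processing numbered 34, with 19 rises and 4 falls against WT replicate 1 (32.3% and 32.5% of all genes) and 8 rises and 0 falls against WT replicate 2 (20.9% and 22.8%). The share of rises against WT replicate 2 was close to that of all genes. Over both WT libraries 24 of the values were positive and 10 negative, with a median of 0.22, and they ran from −0.52 to 0.85. Rrp1b, a nucleolar processing factor, stood at 13.0 and 11.7 CPM in the WT pair, and 20.9 and 21.96 CPM in the KO pair (0.80, SE 0.21, edgeR adjusted p = 0.117), and 0.70 and 0.88 against WT replicates 1 and 2. Gnl3, which encodes nucleostemin, stood at 16.2 and 24.99 CPM in the WT pair, and 34.9 and 39.5 CPM in the KO pair (0.85, SE 0.29, edgeR adjusted p = 0.174), and 1.19 and 0.58 in the same order. Polr1a, the largest subunit of RNA polymerase I, stood at 21.7 and 24.9 CPM in the WT pair, and 34.1 and 33.7 CPM in the KO pair (0.54, SE 0.20, edgeR adjusted p = 0.188), and 0.62 and 0.45. All 3 were higher in both KO libraries than in both WT libraries, as were 34.3% of all genes tested. They were named for having the smallest p of the 34, so this separation says nothing about the class as a whole. Of the Npm1 relatives, Npm3 had a value of −0.21 (0.047 and −0.42 against the single WT libraries) and overlapped between groups, and Npm2 was too low to test.

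Of 10 polyamine genes beyond Odc1, edgeR called none against both WT libraries, and 4 values were positive and 6 negative, with a median of −0.30. Of them, 4 fell and 0 rose against WT replicate 2 (22.8% and 20.9% of all genes), and 5 fell and 2 rose against WT replicate 1 (32.5% and 32.3%). Amd1 and Amd2, which encode S-adenosylmethionine decarboxylase, stood at 35.6 and 35.9 CPM and at 23.7 and 21.6 CPM in WT, and at 15.64 and 19.8 CPM and 11.3 and 11.2 CPM in KO. Their log2 values were both −1.01 (edgeR adjusted p = 0.0887 and 0.0813), with DESeq2 adjusted p = 0.04998 and 0.0427. Against WT replicates 1 and 2 they were −1.02 and −1.01 for Amd1 and −1.09 and −0.94 for Amd2, but they are near-identical copies whose reads the counting may have split. Azin1, an activator of ornithine decarboxylase, stood at 128 and 77.4 CPM in the WT pair, and 47.1 and 48.2 CPM in the KO pair (−1.11, SE 0.33, edgeR adjusted p = 0.141), and its difference of −1.45 from WT replicate 1 was over 1.5 times that of −0.69 from WT replicate 2. Of the 7 genes of pyrimidine synthesis, 1 rose and 2 fell against WT replicate 2 (20.9% and 22.8% of all genes), and 2 rose and 3 fell against WT replicate 1 (32.3% and 32.5%), too few genes to read a direction from. Ctps, the CTP synthase gene, stood at 13.2 and 14.2 CPM in the WT pair, and 24.9 and 22.4 CPM in the KO pair (0.79, SE 0.20, edgeR adjusted p = 0.115), and 0.83 and 0.74 against WT replicates 1 and 2. Cmpk1, a nucleotide monophosphate kinase gene, stood at 84.7 and 154 CPM in the WT pair, and 50.1 and 45.9 CPM in the KO pair (−1.32, SE 0.38, edgeR adjusted p = 0.133; DESeq2 adjusted p = 0.0430), with −0.83 against WT replicate 1 and −1.68 against WT replicate 2. Uck2, a uridine-cytidine kinase gene of the salvage route, stood at 29.7 and 27.3 CPM in the WT pair, and 19.2 and 21.4 CPM in the KO pair (−0.49, SE 0.20, edgeR adjusted p = 0.217), and −0.56 and −0.42 against the single WT libraries. By CPM of the library total Amd1, Amd2, Cmpk1 and Uck2 overlapped between groups, with Amd1 at 18.3 and 42.1 in the WT pair and 19.9 and 25.6 in the KO pair, whereas Azin1 stayed lower in both KO libraries, at 60.1 and 62.3 against 65.8 and 90.7.

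**Figure D4:**
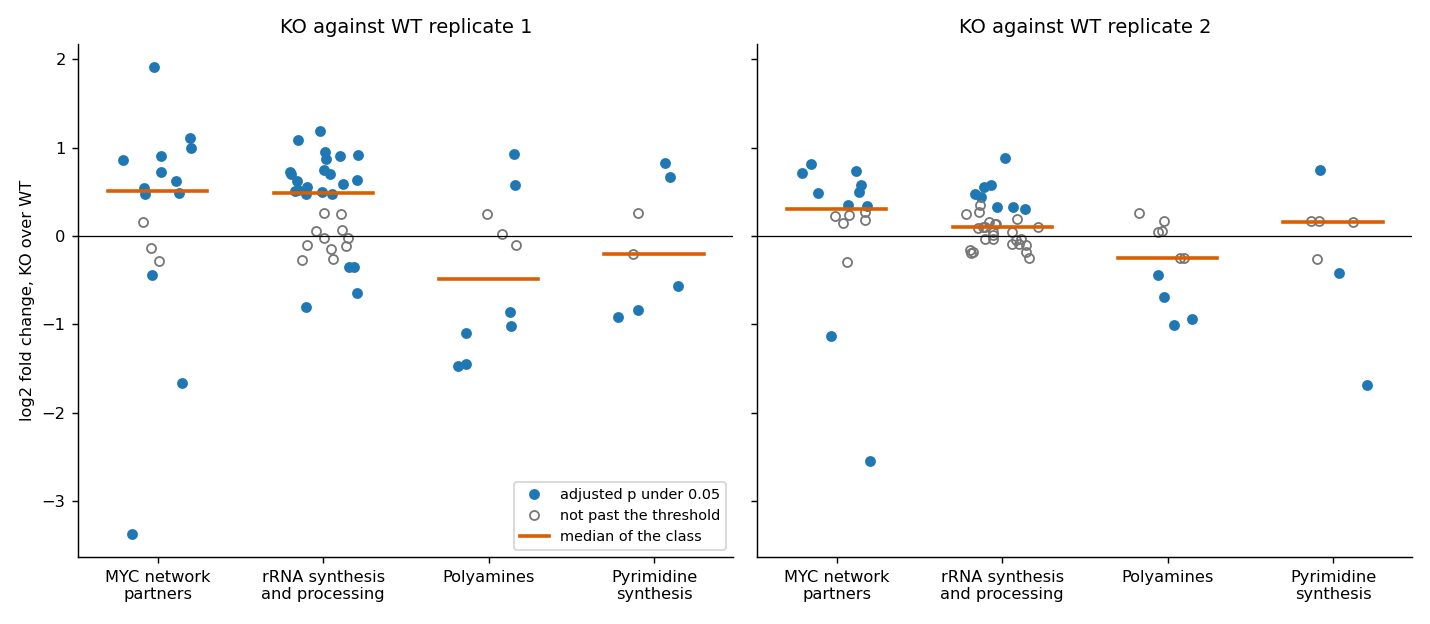
Log2 fold change of KO over WT for the listed genes of 4 classes, against WT replicate 1 (left) and WT replicate 2 (right); filled points passed an edgeR adjusted p of 0.05, open points did not, orange lines are class medians, and the KO libraries are shared by the panels. The medians of the partner and ribosomal RNA classes are 0.52 and 0.49 on the left and 0.30 and 0.10 on the right, and those of the polyamine class are −0.48 and −0.25.

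Many other genes had the same pattern as Myc over the 4 libraries. The closest among 11117 genes whose log2 CPM averaged 3 or more were Fam100b, Med7, Dcp1a, Necap2 and Plekhb2, whose mean-centred log2 CPM differed from that of Myc by a root mean square of 0.0209 to 0.0290. Fam100b stood at 23.4 and 24.5 CPM in the WT pair, and 40.0 and 38.2 CPM in the KO pair. Within a difference of 0.1 there were 204 such genes, so 4 libraries do not single out the pattern of Myc.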

How the data were processed

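Total RNA depleted of ribosomal RNA was sequenced on an Ion Torrent instrument in 4 libraries, per the labels. The authors deposited raw read counts per gene, per the file headers; the submitters' processing notes name mm10 and DESeq2 1.62 without a role, and which aligner and counter were used is not given in the sources used here. Each listed length equals the genomic span, for 38087 genes, so intronic and overlapping reads may be counted, and strand use is not stated. The authors also deposited a comparison table with log2 fold changes and unadjusted p-values, per the file headers, and log2 values that are centred per gene, as the values show, and were not tested. A further 8 per-sample columns (coverage) were left out.

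The main test was the quasi-likelihood test of edgeR 4.0.16 (R 4.3.3) on the counts with TMM scaling, after filterByExpr at 10 reads (15 in total), with Benjamini-Hochberg adjustment over all genes tested and a threshold of 0.05. Each SE was derived from the F statistic. CPM are TMM scaled (factors 0.513, 1.18, 1.28 and 1.29) unless given per library total. With 2 against 2 libraries an exact permutation test cannot go below 0.333, so none was used. Genes with 0 reads are given a limit of 3 counts. Alternatives were other scaling factors and filters, DESeq2 1.42.0, limma-voom (limma 3.58.1), a replicate block and each library left out. The KO pair differed by more than sampling noise (chi-square per degree of freedom 11.1), as did the WT pair (695).

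The 10 members and the pathway lists were chosen with earlier results of these data known. Named genes are the members, the 3 genes with the smallest p in each of 4 pathway classes, and the 5 nearest to Myc; Mxd3, Npm2 and Npm3 were named after their values were seen.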

Additional observations from a re-analysis of the deposited data

How the results depend on the processing

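Across 9 alternatives with all 4 libraries, the 81 fold changes of the 9 tested members kept their direction and stayed short of the threshold. Over all genes, 216 were called higher and 451 lower; the counts were 542 and 1188 with no count filter, 1325 and 2430 with DESeq2, and 0 and 0 with library totals alone. At those 0 counts edgeR gave 1472 and 1505 genes at an unadjusted p under 0.05. With library totals alone the median of all genes shifted to 0.60, Myc stood at 1.27 and Cad at 0.67. The replicate numbers are not said to pair the samples, and deviations of same-numbered libraries correlated at −0.108. With the replicate block 0 genes were called higher and 0 lower (1866 and 2734 at an unadjusted p under 0.05), and with the numbers crossed, an alternative chosen after seeing the data, 202 and 643.

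Leaving out 1 library in turn gave 0 to 6887 genes called higher and 0 to 6922 lower, with 0 to 6 members higher and 0 to 1 lower. The counts were 4573 and 4988 when WT replicate 1 was dropped, 6887 and 6922 when WT replicate 2 was, and 0 and 0 when either KO replicate was (732 and 1318 at an unadjusted p under 0.05 without replicate 1, 743 and 1342 without replicate 2). The lone library of a group is there assumed to vary like the other group. Odc1 ranged from −0.020 (without WT replicate 1) to 0.345, and Mycl from −0.174 (without WT replicate 2) to 0.438. With library totals alone Mycl turned to 1.17 against WT replicate 1, where 15091 genes were called higher and 2608 lower, and Odc1 to 0.105 against WT replicate 2; both lie below the shift of all genes. The cause was not tested. Depth limits Mycn most, at 0 to 13 reads per library.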
